A study of Homo sapiens with 4 samples.

Results

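The short hairpin shR-467 was compared with the mock hairpin shR-MOCK in Hep3B cells, a line derived from a human hepatocellular carcinoma. These are 2 of the 4 arrays of the series and were chosen by their labels. The cells of one carried the mock hairpin plasmid, and those of the other carried plasmid shR-467, which targets the UNC50 mRNA at position 467. The remaining arrays, shR-554 and shR-749, hold Hep3B cells with hairpins against positions 554 and 749 of the same mRNA, and were used to sort the changes into those shared with another hairpin and those seen with shR-467 alone. Per the study's methods, the mock, shR-554 and shR-749 hairpins were cloned into pLKO.1, and cells transfected with them were enriched with puromycin. The methods do not describe shR-467, so that its handling is known only from the labels. Each group is 1 culture and 1 array, with no replicate, and the labels name no untransfected cells. Of 34809 gene names on the array, 23262 had a probe well above background on both arrays, and 21492 of these were read on all 4.

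UNC50 is a small multispanning membrane protein of the Golgi, known from worms and mammals for its part in bringing nicotinic acetylcholine receptors to the cell surface. A short hairpin RNA is cut by the cell into a small interfering RNA that guides the breakdown of mRNAs with a matching sequence. Its guide strand can also pair through its seed with mRNAs that are not its target, and this second set of mRNAs depends on the sequence of each hairpin. Hairpins against different positions of an mRNA therefore share the intended target but not the seed. Hep3B cells keep much of the liver programme of secreted proteins, among them albumin, alpha-fetoprotein and apolipoproteins.

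The sequences shown are the 60-base array probes behind the results that the comparison turns on, namely the target, the marker genes, their paralogues and the genes that set shR-467 apart. All are printed 5′ to 3′ as in the scanner files, in lower case with no base marked. In hg19 coordinates of the array annotation the UNC50 probe lies at chr2:99227237-99227296. The AREG probes lie at chr4:75320518-75320577 and chr4:75318293-75318352. The REG3A probe is at chr2:79384308-79384367 and that of its paralogue REG3G at chr2:79255336-79255395. The INSIG1 probe is at chr7:155101843-155101902. The probe named HP is at chr16:72094877-72094936 and the one named HPR at chr16:72094693-72094752.
UNC50: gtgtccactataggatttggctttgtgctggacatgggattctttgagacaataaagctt
AREG, first probe: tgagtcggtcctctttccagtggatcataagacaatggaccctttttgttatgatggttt
AREG, second probe: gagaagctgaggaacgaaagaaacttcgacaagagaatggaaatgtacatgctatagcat
REG3A: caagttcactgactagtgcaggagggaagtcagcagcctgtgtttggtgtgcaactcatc
REG3G: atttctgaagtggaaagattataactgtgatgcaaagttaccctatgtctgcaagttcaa
HP: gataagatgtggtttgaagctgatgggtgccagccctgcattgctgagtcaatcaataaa
HPR: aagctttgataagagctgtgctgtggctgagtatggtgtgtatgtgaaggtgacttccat
INSIG1: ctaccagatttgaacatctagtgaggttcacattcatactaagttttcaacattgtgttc
The REG3A and REG3G probes matched at 20 of 54 bases in their best ungapped placement, so these readings come from different stretches. The HP and HPR probes are not independent genes in this sense. The annotation places them 124 bases apart at one locus and lists the same 3 RefSeq mRNAs for both, including those of haptoglobin and of haptoglobin-related protein, so that they are described here as 2 readings of haptoglobin sequence.

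Values of the 4 arrays are listed in the order mock, shR-467, shR-554, shR-749, called array order, and those of the hairpins alone in order of their target positions. Signals are given as scaled signals, that is the background-subtracted intensity divided by the array's 75th percentile, and differences as the log2 of a ratio of scaled signals. The share of spots well above background was 67.6% to 73.6% per array, and no spot was saturated. Where a probe had several spots, the standard error between spots is given, and it covers the array surface and not the culture. The arrays shared 1 slide and 1 scan, with shR-MOCK and shR-467 in row 1 of the slide and shR-554 and shR-749 in row 2. Effects of the slide row and of hairpin shR-467 against the other hairpins cannot be told apart. The labelled cell type was checked against 13 hepatocyte and hepatoma markers, all of which were well above background on both arrays. In a bulk sample, fewer cells of a type and less RNA per cell cannot be told apart.

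UNC50, the target, gave a scaled signal of 4.47 with shR-MOCK and, on the hairpin arrays, 1.07 with shR-467, then 0.614 for shR-554 and 0.838 for shR-749. The 3 hairpin arrays lay below the mock array, with shR-467 the highest of them. With shR-467 UNC50 stood at 24.0% of the mock level, a log2 difference of -2.06, against 13.7% with shR-554 and 18.7% with shR-749. The probe is printed in 1 spot, so the reading has no spot error. The contrast of shR-467 with the mean of the other hairpins was 0.58 ± 0.29 (SE from limma) on the log2 scale, with an adjusted p of 0.770 in limma.

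Which genes differed between shR-467 and the mock hairpin was described with a threshold of 1.5-fold and without a test, since each side is 1 array. The study's methods name the same fold, but for an average fold change, so the counts here are of another measure. With shR-467, 1814 of 23262 genes (7.8%) were at least 1.5-fold higher and 968 (4.16%) at least 1.5-fold lower, 2782 in all. At 2-fold the counts were 467 higher and 263 lower, and at 4-fold 23 higher and 21 lower. The median difference over all genes was 0.05 on the log2 scale. Higher genes made up 65.2% of the calls, a share that fell to 54.8% with quantile normalization and to 54.8% in the authors' processed values.

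The calls were mostly dim genes. With the genes cut into 4 equal groups by mean scaled signal on both arrays, 21.3% of the dimmest group passed 1.5-fold and 72.3% of those were higher with shR-467. In the brightest group, 4.42% passed, 177 higher and 80 lower. Between them the share was 15.1% in the second group and 7.05% in the third. The interquartile range of the log2 differences was 0.55 in the dimmest group and 0.28 in the brightest, so a 1.5-fold difference lay closer to the bulk of the genes at low signal. The median difference of the dimmest group was 0.18. The lowest intensity well above background was 21.2 with shR-MOCK and 25.5 with shR-467, beside 75th percentiles of 1120 and 978. The scaled limit of detection was thus higher with shR-467, and its part in the excess of higher calls was not tested.

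**Figure D1:**
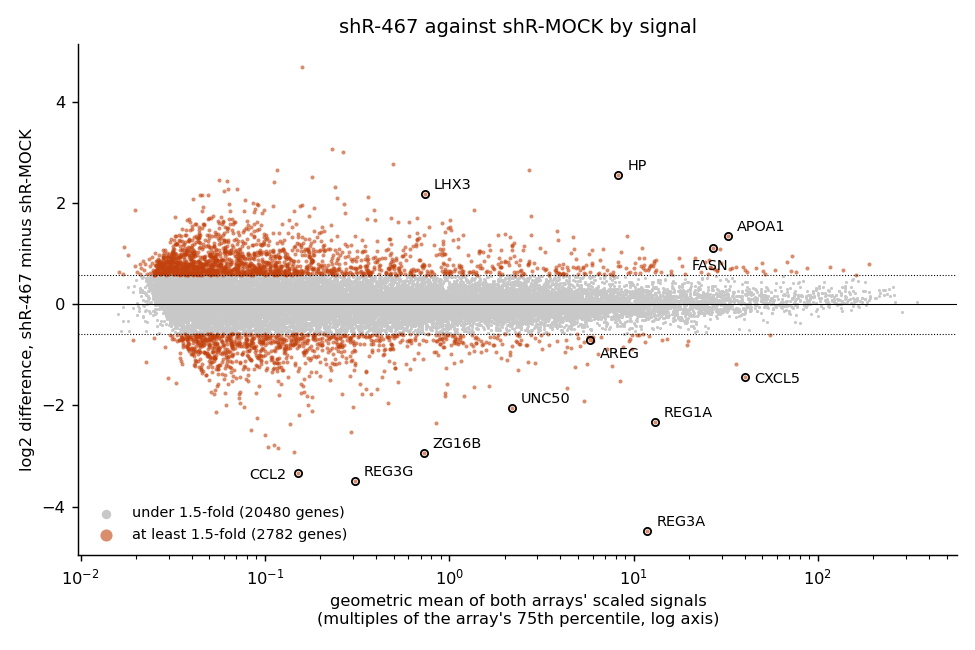
Log2 difference between shR-467 and shR-MOCK (vertical axis) against the geometric mean of the scaled signals of both arrays (horizontal log axis) for 23262 genes, 1 point per gene. Dotted lines mark 1.5-fold, and 2782 genes lie beyond them; the cloud widens to the left, at low signal, while REG3A, CXCL5, HP and FASN lie outside it at high signal.

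The sort by the other hairpins used the 21492 genes read on all 4 arrays. All 3 differences share the 1 mock array, so that a high or low value on it moves all of them alike and adds to the shared class. On these genes shR-467 gave 1343 higher (6.25%) and 928 lower (4.32%). The corresponding counts were 964 (4.49%) and 1792 (8.34%) with shR-554, and 1139 (5.3%) and 1360 (6.33%) with shR-749. Of the 2271 genes past 1.5-fold with shR-467, 224 were past it the same way with both other hairpins, 122 higher and 102 lower. Another 275 were shared with shR-554 alone and 308 with shR-749 alone. The remaining 1464 genes, 64.5%, passed 1.5-fold with neither other hairpin, 983 of them higher and 481 lower. In this class 67.1% were thus higher, a share that was 54.0% with quantile normalization (806 higher and 688 lower) and 55.4% with median scaling (777 and 625).

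Among the 1464, 348 lay at least 2-fold beyond both other hairpins, 273 above and 75 below. The shared class was a larger part of the genes with large differences. Of the 33 genes past 4-fold, 16 were past 1.5-fold the same way with both other hairpins and 10 with neither. The direction was uneven, since 12 of the 19 genes at least 4-fold lower and 4 of the 14 at least 4-fold higher belonged to the shared class. A set of 44 genes went past 1.5-fold the opposite way with both other hairpins, 38 of them higher with shR-467. The classes differed in brightness, with a median mock intensity of 344 in the shared class and 117 in the class of neither. Where a gene had another probe, the median of its other probes had the same sign in 26 of 32 shared genes and in 140 of 172 genes of the neither class, and passed 1.5-fold in 14 and 50 of them. Among genes under 1.5-fold with shR-467, the sign was the same in 2518 of 3766, and 162 passed 1.5-fold by their other probes.

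**Figure D2:**
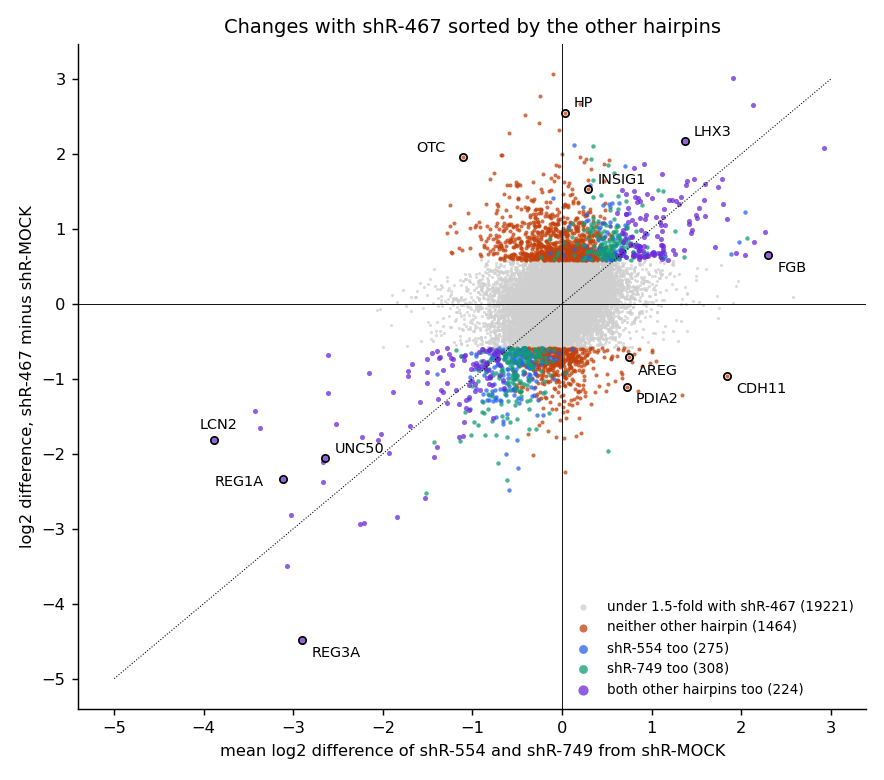
Log2 difference from shR-MOCK with shR-467 (vertical axis) against the mean of the differences with shR-554 and shR-749 (horizontal axis) for 21492 genes, coloured by whether the other hairpins also passed 1.5-fold the same way. The dotted line marks equal differences; UNC50 and REG1A lie near it, HP lies straight above the origin, and OTC, AREG, PDIA2 and CDH11 lie on opposite sides of 0 on the axes.

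Taken as distances between arrays, each hairpin, shR-467 included, was nearer to the mock array than to the other hairpins. The number of genes past 1.5-fold was 2271 between shR-467 and shR-MOCK, 4186 between shR-554 and shR-467, and 3699 between shR-749 and shR-467. It was 2756 between shR-554 and shR-MOCK, 2499 between shR-749 and shR-MOCK, and 3251 between shR-749 and shR-554. The interquartile range of the log2 differences ordered the pairs alike, at 0.40 for shR-467 against shR-MOCK, 0.54 and 0.51 for shR-467 against shR-554 and shR-749, 0.42 and 0.41 for shR-554 and shR-749 against shR-MOCK, and 0.46 for the last pair.

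The difference between shR-467 and the mean of the other hairpins was tested itself in limma, in a fit in which the lone arrays are assumed to vary like shR-554 and shR-749. With 1 residual degree of freedom, 0 of 21492 genes passed an adjusted p of 0.05, where the smallest adjusted value was 0.503. Without adjustment, 1496 genes were under 0.05 in limma, 1006 higher and 490 lower with shR-467. The methods' t-test gave 1322 unadjusted and 0 after adjustment. In the same limma fit the contrast of shR-467 with the mock array also gave 0 genes, with 737 unadjusted and a smallest adjusted p of 0.913. No gene named hereafter passed a test, and the values are descriptions of these arrays.

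The largest differences below the mock array were secreted lectins and a chemokine that the other hairpins lowered too. REG3A, a lectin with bactericidal activity made by gut, pancreas and liver tumours, gave a scaled signal of 56.3 with shR-MOCK and, on the hairpin arrays, 2.50 with shR-467, then 19.0 for shR-554 and 3.004 for shR-749. The mock array was the highest and shR-467 the lowest, with shR-554 between. The log2 difference with shR-467 was -4.49 ± 0.02 (SE between spots), against -1.57 with shR-554 and -4.23 with shR-749. For its paralogue REG3G the scaled signals were 1.04, 0.092, 0.279 and 0.055 in array order. REG1A, a growth factor-like member of the family, read 29.2, 5.80, 4.67 and 2.45 on the same arrays. All 3 lectins were thus lower on every hairpin array, but shR-467 stood lowest for REG3A alone. The other 2 of the 5 family members were dim and near the mock level, with log2 differences of 0.06 for REG1B and 0.04 for REG4, the latter not well above background with shR-554 and shR-749.

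Other genes lower with all hairpins included ZG16B, a secreted lectin-like protein, whose scaled signal was 2.01 with the mock hairpin and 0.262, 0.384 and 0.463 on the hairpin arrays. AKR1B10, an aldo-keto reductase found in liver tumours, read 0.316 with the mock hairpin and 0.044, 0.043 and 0.179 with the hairpins in the same order. For both genes shR-749 was the hairpin nearest to the mock array. The AKR1B10 difference with shR-467 was -2.84, or -1.92 with normexp and quantile normalization. Cyclin D1 (CCND1), which drives entry into the cell cycle, had log2 differences of -0.91, -1.68 and -1.33 with the hairpins in that order, and its shR-467 value was -1.42 in the authors' processed values. The matrix protease MMP7 had -1.32, -1.42 and -1.14, and the peptide hormone gastrin (GAST) -1.77, -3.32 and -1.14. For CCND1 and GAST the difference was smaller with shR-467 than with shR-554, while for MMP7 all lay close together with this scaling. Over the settings tried, the MMP7 difference with shR-467 ranged from -1.72 to -0.96. LCN2, a siderophore-binding protein of the acute phase, read 1.78 on the mock array and 0.506, 0.131 and 0.111 on the hairpin arrays. The shR-467 array thus lay between the mock array and the other hairpins, with a contrast of 2.07 on the log2 scale.

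Of the remaining genes in the shared class, ADAM23, RIBC1, C4orf7 and DHRS2 were lower with log2 differences of -2.59, -2.38, -2.11 and -2.04 with shR-467. Shared differences upward were smaller. LHX3, a homeobox transcription factor of the pituitary, read 0.346 on the mock array and 1.56, 0.928 and 0.862 on the hairpin arrays, so that shR-467 was the highest. WNT11 had log2 differences of 1.57, 1.81 and 1.67, NETO2 1.60, 1.33 and 1.86, and the lipoprotein component APOA4 1.67, 1.81 and 1.14. KRT20, C12orf75, TMEM86B, LOC284837 and the heme scavenger hemopexin (HPX) were also higher on all 3, with shR-467 differences of 1.47 to 1.66. BTN1A1 was dim, and its shR-467 difference of 1.73 had a standard error of 1.72 between spots. With normexp background correction followed by quantile normalization, BTN1A1 came to 0.38, KRT20 to 0.83, LOC284837 to 0.82 and WNT11 to 0.91, while ADAM23 came to -1.64 and RIBC1 to -1.61.

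MUC1, a cell surface mucin, was read in opposite directions by different probes. The probe with the higher mean signal had a log2 difference of 0.65 ± 0.29 (SE between spots) with shR-467 beside 0.89 and 0.76 with the other hairpins, and the second probe -1.44, -1.74 and -1.28. The second probe is the one that the study lists for this gene. The direction of MUC1 is not settled on this array. EGF was read above background with the mock hairpin alone, at an intensity of 29.3, and no fold is given for it.

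Amphiregulin, the EGF receptor ligand encoded by AREG, was one of the genes for which shR-467 went the other way from both other hairpins. Its scaled signal was 7.45 with shR-MOCK and, on the hairpin arrays, 4.57 with shR-467, then 12.9 for shR-554 and 12.2 for shR-749. The shR-467 array was thus the lowest and the other hairpin arrays the highest, with the mock array between. The log2 differences were -0.70 ± 0.06 (SE between spots), 0.80 and 0.71. The second probe, at the other position shown, gave intensities of 2680, 1530, 4830 and 4580 in array order, and log2 differences of -0.61, 0.54 and 0.76. The contrast of shR-467 with the mean of the other hairpins was -1.46 ± 0.19 (SE from limma), with an adjusted p of 0.503 in limma.

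Of the other EGF-like ligands, 4 were read on both arrays, and none was at least 1.5-fold higher with shR-467. Among all 5, 3 were at least 1.5-fold lower, beside 4.16% of all genes, and the median difference was -0.70. EREG (epiregulin) read 1.88 on the mock array and 0.990, 1.01 and 1.66 on the hairpin arrays. BTC (betacellulin) read 0.101, 0.042, 0.078 and 0.172. For EREG the shR-554 array was as low as shR-467, while for BTC shR-467 alone was past 1.5-fold below the mock array. TGFA and HBEGF had shR-467 differences of -0.28 and -0.01. The shR-467 array was the lowest hairpin array for all 5 ligands, where 29.3% of all genes were lowest with shR-467.

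The receptors for these ligands were within 1.5-fold. EGFR had a log2 difference of 0.27 with shR-467, ERBB2 0.05 and ERBB3 0.34. Of 21 genes that ERK signalling induces and that feed back on it, 1 was at least 1.5-fold higher (FOS, 0.63) and 2 were lower (ETV4, -0.91, and DUSP5, -0.62, which was dim), beside 7.8% and 4.16% of all genes. FOS was at 0.58 with median scaling and 0.52 with normexp and quantile normalization, and DUSP5 at -0.26 with the latter, all within 1.5-fold. The phosphatase DUSP6, an ERK feedback gene, read 4.06 on the mock array and 3.18, 1.85 and 1.92 on the hairpin arrays. Its difference was -0.35 with shR-467 against -1.13 and -1.08 with the other hairpins, so that shR-467 lay nearest to the mock array.

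**Figure D3:**
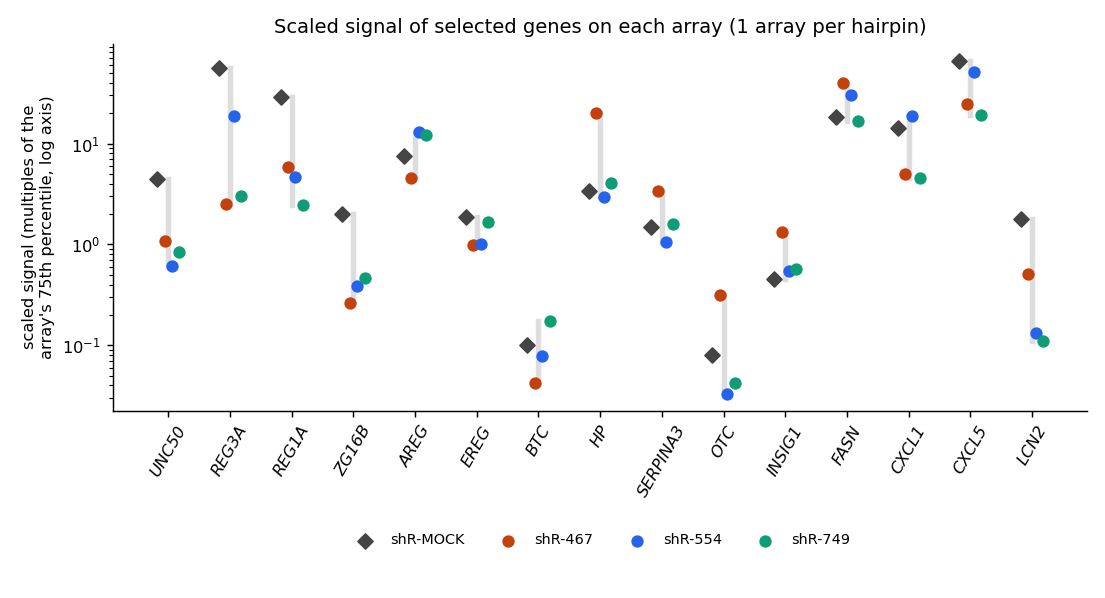
Scaled signal (vertical log axis, multiples of each array's 75th percentile) of 15 genes on the 4 arrays, 1 array per hairpin, with diamonds for shR-MOCK and circles for the hairpins; grey bars join the lowest and highest array of a gene, and there are no error bars as no group has a replicate. The shR-467 point stands alone at the top for HP, OTC and INSIG1 and at the bottom for AREG and BTC.

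Haptoglobin gave the largest differences upward, among genes in the brightest group, that neither other hairpin gave. HP, whose product binds free hemoglobin in plasma, had a scaled signal of 3.40 with shR-MOCK and, on the hairpin arrays, 20.0 with shR-467, then 2.97 for shR-554 and 4.08 for shR-749. The shR-467 array stood apart from the other 3, which lay close together. The log2 difference was 2.55 ± 0.06 (SE between spots), a ratio of 5.87, against -0.19 and 0.26 with shR-554 and shR-749. The HPR probe gave 1.07, 6.79, 1.15 and 1.32, a log2 difference of 2.66 with shR-467. The contrast with the mean of the other hairpins was 2.52 ± 0.26 (SE from limma) for HP, with an adjusted p of 0.503 in limma.

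Haptoglobin belongs to the acute phase and iron genes, a list of 20, all read on both arrays. With shR-467 7 were at least 1.5-fold higher, beside 7.8% of all genes, and 2 were lower, beside 4.16%, with a median difference of 0.38. SERPINA3 (alpha-1-antichymotrypsin) read 1.47 on the mock array and 3.40, 1.06 and 1.60 on the hairpin arrays. HAMP, which encodes the iron hormone hepcidin, read 22.7, 35.8, 18.2 and 23.2 in the same order. Both were above all other arrays with shR-467, as was FGL1 at 100.3 against 41.6 to 67.1. The fibrinogen chains lay above the mock array with every hairpin but least with shR-467, where FGA, FGB and FGG had differences of 0.68, 0.65 and 0.52. With shR-554 these were 1.48, 1.94 and 1.09, and with shR-749 2.39, 2.67 and 2.46. The lower members were LCN2, described above, and serum amyloid SAA1 at -0.75, or -0.57 with normexp and quantile normalization.

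Liver secreted proteins were higher in part. Of 29 read on both arrays, 11 were at least 1.5-fold higher with shR-467 and 0 lower, beside 7.8% and 4.16% of all genes, and the median was 0.43. With shR-554 5 were higher and 2 lower, beside 4.49% and 8.34%, and with shR-749 8 were higher and 0 lower, beside 5.3% and 6.33%, with medians of 0.14 and 0.15. APOA1, the main protein of high-density lipoprotein, read 20.4 on the mock array and 52.0, 30.9 and 42.5 on the hairpin arrays. Antithrombin (SERPINC1) read 1.53, 5.11, 0.967 and 5.36, so that shR-467 and shR-749 lay together above the mock array and shR-554 below it. APOH, which binds phospholipids, read 20.0, 43.0, 29.1 and 22.2 in array order. APOM and SERPINA1 had shR-467 differences of 0.75 and 0.65 and were likewise above both other hairpins, but SERPINA1 was at 0.52 with quantile normalization, within 1.5-fold. Albumin (ALB) differed little, at 0.31, 0.18 and 0.27 with the hairpins in order. The oncofetal protein AFP was higher with shR-554 and shR-749, at 1.02 and 1.53, and was at 0.20 with shR-467.

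The genes of cholesterol and fatty acid synthesis lay above the mock level with shR-467 throughout the list. These enzymes are controlled together by the SREBP transcription factors, which are held back when the cell has enough sterol. Of 24 members read on both arrays, 14 were at least 1.5-fold higher and 0 lower, beside 7.8% and 4.16% of all genes. All 24 differences were above 0, as were 57.2% of those of all genes, and the median was 0.65. With shR-554 5 members were higher and 0 lower, beside 4.49% and 8.34% of all genes, with a median of 0.51. With shR-749 0 were higher and 1 was lower, beside 5.3% and 6.33% of all genes, with a median of -0.13. The shR-467 value was above both other hairpins in 21 of 24 members, where the share over all genes was 40.3%.

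INSIG1, which retains the SREBP complex in the endoplasmic reticulum when sterols are plentiful, had scaled signals of 0.454 with shR-MOCK and, on the hairpin arrays, 1.32 with shR-467, then 0.545 for shR-554 and 0.571 for shR-749. Its difference of 1.53 was the highest of the list and was not given by the other hairpins, at 0.26 and 0.33. The cholesterol synthesis enzymes HMGCS1, SQLE, LSS, FDFT1 and DHCR7 had shR-467 differences of 0.78, 0.87, 1.00, 0.92 and 0.85. Fatty acid synthase (FASN) read 18.4, 39.8, 30.3 and 16.6 in array order. It shows the order of the list medians, with shR-467 above shR-554 and shR-749 near the mock level. The fatty acid desaturase SCD was within 1.5-fold at 0.26.

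**Figure D4:**
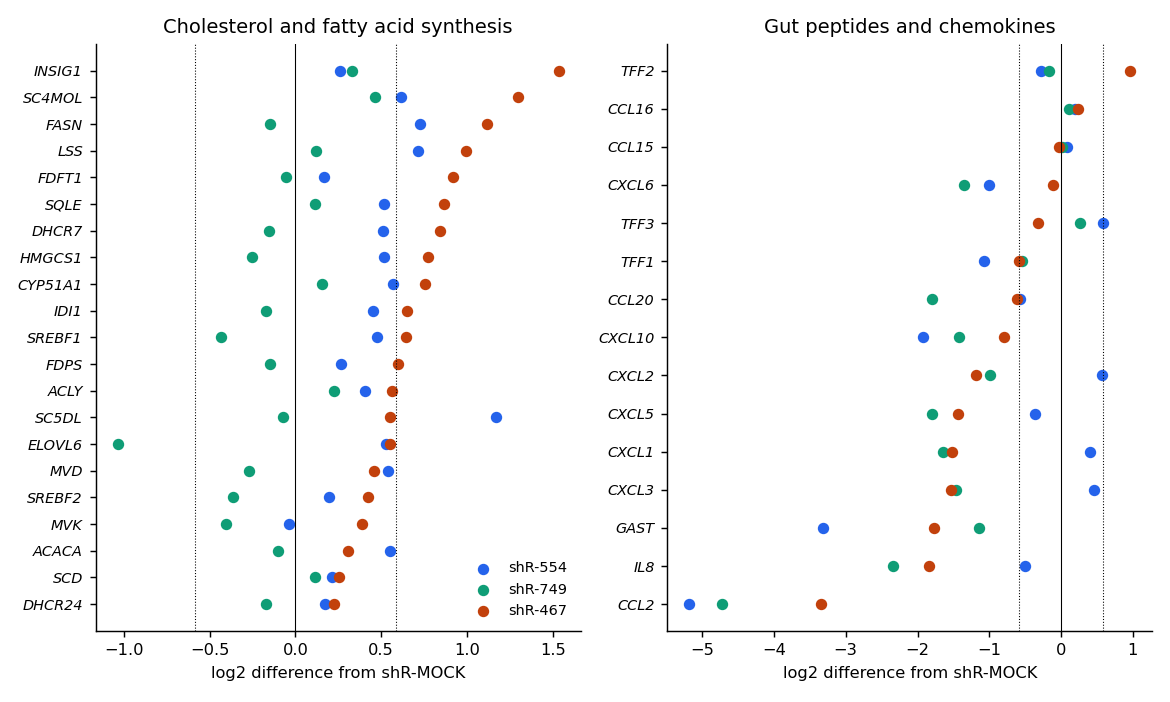
Log2 differences from shR-MOCK (horizontal axis) of 21 genes of cholesterol and fatty acid synthesis (left) and 15 gut peptides and chemokines (right) with each hairpin, 1 point per gene and hairpin and dotted lines at 1.5-fold. On the left the shR-467 points are all above 0 and those of shR-749 lie around 0; on the right CXCL1, CXCL2 and CXCL3 are low with shR-467 and shR-749 and above 0 with shR-554. CCL2 was not well above background with shR-554 and shR-749.

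Chemokines and gut peptides were mostly lower. Of 15 read on both arrays, 9 were at least 1.5-fold lower with shR-467, beside 4.16% of all genes, and 1 was higher, with a median of -0.80. CCL2, which attracts monocytes, read 0.483 on the mock array and 0.048 with shR-467, a difference of -3.34 ± 0.06 over 10 spots, and was not well above background on the other hairpin arrays. CXCL5, which attracts neutrophils, read 66.4, 24.5, 51.7 and 19.1 in array order. CXCL1, a ligand of the same receptor, read 14.2, 4.97, 18.9 and 4.56. In both, shR-467 and shR-749 lay together well below the mock array and shR-554 stayed nearer to it. CXCL2, CXCL3 and IL8 had shR-467 differences of -1.18, -1.54 and -1.85. Of these chemokines CCL2 came to -2.38 and IL8 to -1.08 with normexp and quantile normalization. CCL20 read 67.6, 44.3, 45.3 and 19.5 on the 4 arrays and CXCL10 1.99, 1.14, 0.523 and 0.742. The gene at least 1.5-fold higher was the trefoil peptide TFF2, dim at 0.97 and at 0.52 with normexp and quantile normalization.

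**Figure D5:**
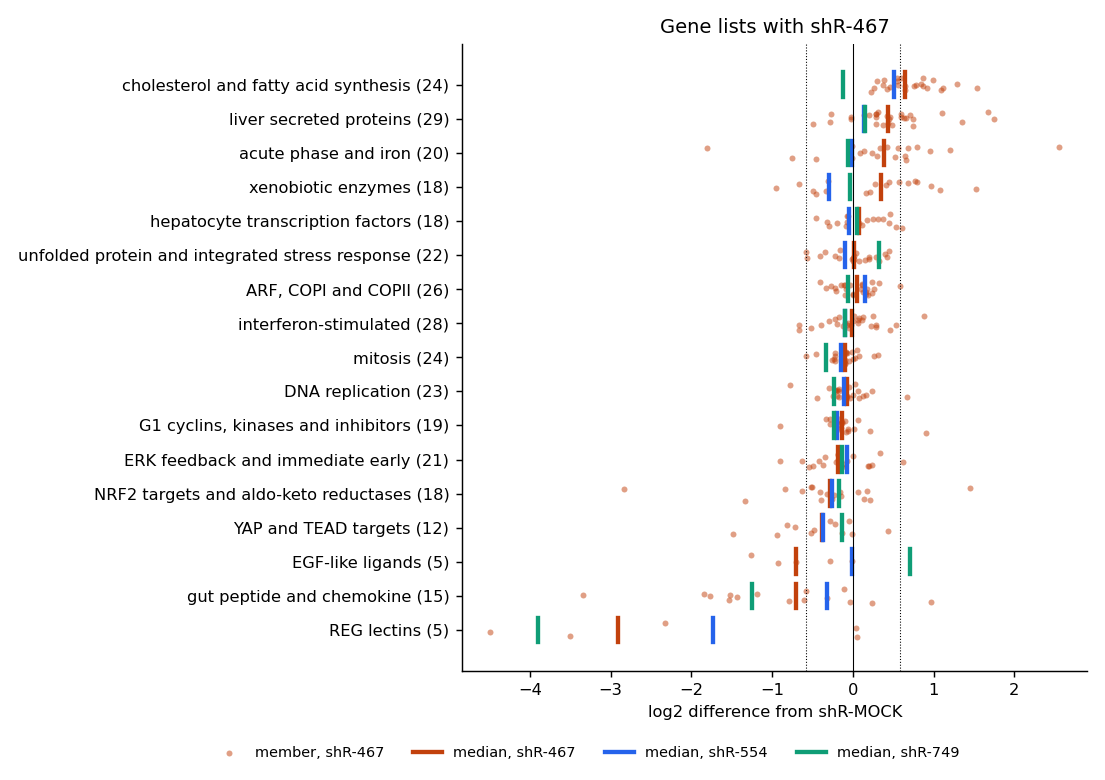
Log2 differences from shR-MOCK with shR-467 (horizontal axis) of the members of 17 gene lists (points, jittered vertically, with the number read on both arrays in brackets); vertical bars are the medians with each hairpin over members read on all 4 arrays, and dotted lines mark 1.5-fold. The shR-467 median is farthest right for cholesterol and fatty acid synthesis and farthest left for the REG lectins, while the cell cycle, trafficking and stress lists sit near 0.

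Outside the lists, the genes that shR-467 set apart most clearly from both other hairpins were of mixed kinds. Among those higher, OTC, the urea cycle enzyme ornithine transcarbamylase, read 0.080 on the mock array and 0.313, 0.033 and 0.042 on the hairpin arrays. AGXT2, a mitochondrial aminotransferase, read 0.082, 0.173, 0.036 and 0.035. In both of these liver enzymes the mock array lay between shR-467 above and the other hairpins below. SCN2B, a sodium channel subunit, and C21orf63 had the same order, with shR-467 differences of 1.99 and 1.46. HOPX had 1.66, PDK4, which restrains pyruvate oxidation, 1.58, and ASIP 2.28, but PDK4 and ASIP had standard errors between spots of 1.46 and 1.78, close to the difference. With normexp and quantile normalization PDK4 came to 0.50, ASIP to 1.45, SCN2B to 1.22 and C21orf63 to 0.81.

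Among the genes lower with shR-467 than with both other hairpins, PDIA2, a protein disulfide isomerase, read 0.436 on the mock array and 0.202, 0.710 and 0.734 on the hairpin arrays. The adhesion molecule CDH11 read 0.098, 0.050, 0.703 and 0.176. CREM, a regulator of cAMP-responsive genes, read 0.563, 0.221, 0.598 and 0.618, and ARHGAP22 0.871, 0.386, 1.01 and 1.26. In ARHGAP22 and, by this probe, CREM the shR-467 array alone left the mock level by 1.5-fold. A second CREM probe gave log2 differences of -0.39, -0.45 and -0.22 with the hairpins in order. By that probe CREM was within 1.5-fold on every hairpin array and shR-467 did not stand apart. LRRC27, C7orf13, DCAF12L2, MITF and MEI1 had shR-467 differences of -1.80, -2.02, -1.52, -1.07 and -0.78, of which MITF had a standard error of 0.92 between spots. Their values rest on probes printed in 1 or 2 spots. LRRC27 was at 0.05 by the probe left under the stricter signal filter, and at -0.88 as the mean over its probes, while CREM was at -0.87 as the mean over its probes. Other MITF probes read -0.18 and 0.66 with shR-467, so the direction of MITF is not settled on this array. With normexp and quantile normalization C7orf13 came to -1.25, DCAF12L2 to -0.94, MITF to -0.48, MEI1 to -0.58 and CDH11 to -0.59.

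The largest differences by size were partly not shared and partly not readable elsewhere. TAS2R50, OR6K2, GLI2 and HAO1 had shR-467 differences of 2.46, 2.43, 2.16 and 2.07 from single spots, with mock intensities of 23.4 to 42.8, and were not well above background on all 4 arrays. With normexp and quantile normalization they came to 1.22, 1.14, 0.89 and 1.14. CFHR2, a complement regulator, was shared with shR-554 at 2.12 and 0.90 but was at -0.62 with shR-749, and the terminal complement component C6 with shR-749 at 2.10 and 1.16. On the low side CEACAM7 and POT1 were shared with shR-749, with shR-467 differences of -2.52 and -2.35. HOXB9 had -2.78, or -1.84 with normexp and quantile normalization, and was not well above background with shR-554 and shR-749.

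Xenobiotic enzymes were mixed, with 6 of 18 at least 1.5-fold higher and 2 lower with shR-467, beside 7.8% and 4.16% of all genes, the shares that apply to each list here. The sulfotransferase SULT2A1 read 0.593 on the mock array and 1.70, 0.770 and 2.02 on the hairpin arrays, while CYP1A1 read 2.49, 1.29, 1.98 and 2.16. Among 18 NRF2 targets and aldo-keto reductases, 1 was higher, the heme oxygenase HMOX1 at 1.45, and 4 were lower, all aldo-keto reductases (AKR1B10, AKR1B1, AKR1C1 and AKR1C4), of which AKR1C4 was at -0.63, and at -0.56 as the mean over its probes. The remaining 13 members were within 1.5-fold, and the median of the list was -0.29. Of 12 YAP and TEAD targets 0 were higher and 4 lower, among them CYR61 at -0.94 and ANKRD1, dim, at -1.48.

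Several lists of general cell processes showed few calls, where 7.8% of all genes were higher and 4.16% lower with shR-467. Those shares rest mostly on dim genes, and 7.05% of the third and 4.42% of the brightest brightness group passed in either direction. The lowest mock intensity was 1060 in the mitotic list and 395 in the ARF, COPI and COPII list. For such bright lists few calls lie near the share of bright genes and are not read as particular to them. Of 24 mitotic genes, 0 passed 1.5-fold in either direction with shR-467, and their median was -0.09. Of 23 DNA replication genes, 1 was higher (PCNA, 0.67) and 1 lower (GINS4, -0.78). Among 19 genes of the G1 phase, CDKN1A was higher at 0.90 and CCND1 lower. In Hep3B, which lacks functional p53, 1 of 13 p53 target genes was past 1.5-fold, and this was CDKN1A again. Of 26 genes of the ARF, COPI and COPII machinery of the Golgi, where UNC50 resides, 0 passed with a median of 0.06. Of 22 genes of the unfolded protein and integrated stress response, 1 was lower (ASNS, -0.59), and 0 were higher, whereas 8 were higher with shR-749, beside 5.3% of all genes. Of 14 Wnt targets, 1 was higher (DKK1, a secreted Wnt inhibitor, at 0.63) and 1 lower (CCND1 again). DKK1 lay below the mock level on the other hairpin arrays, at -0.29 and -0.91. Among 19 hypoxia and glycolysis genes 1 was lower, the glucose transporter SLC2A1 at -0.61, and among 9 metallothioneins 0 passed. Of 9 matrix and mucin genes, MUC1 was higher by the probe with the higher mean signal but lower by its second probe. MMP7, MUC20 and the protease inhibitor TIMP1 were lower, the last at -0.73. Past 1.5-fold here but not with normexp and quantile normalization were DKK1 (0.49), SLC2A1 (-0.56), MUC20 (-0.30) and MUC1 (0.38).

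Responses that can follow from a hairpin itself were also read. Of 28 interferon-stimulated genes, 1 was higher (IFITM1, 0.88) and 2 lower (MX1, -0.66, and PSMB9, -0.67) with shR-467, beside 7.8% and 4.16% of all genes, and the median was -0.01. MX1 was at -0.48 with normexp and quantile normalization. IFITM1 also stood at 0.88 with shR-554. Both lower genes were in the class shared by all 3 hairpins, with MX1 at -0.81 with shR-554 and -0.63 with shR-749. With shR-554 1 of the 28 was higher and 6 were lower, beside 4.49% and 8.34% of all genes. The counts with shR-749 were also 1 and 6, beside 5.3% and 6.33%. Of 12 genes of the small RNA pathway, 0 passed 1.5-fold, with differences between -0.47 for RNASEN and 0.25 for TARBP2.

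The hepatocyte and hepatoma markers themselves were higher in part, with 6 of 13 at least 1.5-fold higher and 0 lower with shR-467, beside 7.8% and 4.16% of all genes, and a summed scaled signal of 643 on the mock array and 866 with shR-467. With shR-554 4 were higher and 0 lower, beside 4.49% and 8.34% of all genes. The counts with shR-749 were also 4 and 0, beside 5.3% and 6.33%. Of the 6 higher with shR-467, 3 were shared by all hairpins and 3 passed 1.5-fold with neither other hairpin. Of 18 hepatocyte transcription factors 1 was higher, HNF4A at 0.61, and it was dim and at 0.57 with quantile normalization. Markers of other cell types summed to 4.68 and 6.04 for 5 leukocyte genes, 0.225 and 0.351 for 3 endothelial genes, and 75.2 and 67.7 for 4 cholangiocyte genes on the mock and shR-467 arrays. CD68 and CD14 carried the leukocyte sum, while PTPRC and CD3E were at 0.108 or below. Of 5 fibroblast and stellate genes, 2 were read on both arrays, at 0.144 and 0.229 in sum. Their part in the results was not tested.

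Some genes were well above background on only 1 of both arrays, where a change can be bounded but not measured. In all, 1862 gene names were read with the mock hairpin and not with shR-467, but the bound on the difference was at least 1.5-fold for 196 of them. For 1085 of them the bound was under 1, so that no fall is shown. Another 526 were read with shR-467 and not with the mock hairpin, 424 with a bound of at least 1.5-fold. The scaled limit of detection was higher with shR-467, so these counts do not compare losses with gains. The largest bounds among named genes were those of KRT72, at least 9.25-fold lower, ENTHD1, at least 8.05-fold lower, and AKR1B15, at least 6.75-fold lower, the last a close relative of AKR1B10. KRT72 and ENTHD1 were not well above background with shR-554 and shR-749 either. On the other side were MFAP5, at least 7.13-fold higher, and ELFN2, at least 5.05-fold higher. ELFN2 was not read on any other array, whereas MFAP5 was also read with shR-749.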

How the data were processed

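Total RNA from 4 Hep3B cultures, 1 per hairpin, was labelled with Cy3 and hybridised to 1-colour Agilent arrays. The authors deposited, for each array, the intensity of each spot as given by Agilent Feature Extraction 10.7.1.1, a version taken from the submitters' processing notes, with the background already subtracted. The authors also deposited a table of log2 values of the same arrays, with its normalization not given in the sources used here. That table gave 2847 genes past 1.5-fold between shR-467 and shR-MOCK, close to the 2848 with quantile normalization. Single genes can differ, and the fall of CCND1 with shR-467 was larger in that table than with the scaling used here.

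The log2 of the intensity was scaled by the 75th percentile of the non-control spots of its array (1120, 978, 1390 and 1130 in array order). Spots marked as outliers by the software were left out (254 to 466 per array), and spots of a probe were averaged. The 42405 probes are printed in 1 spot (34085), 2 (7321) or 10 (999), and the median SD between the spots of 10-spot probes was 0.056 to 0.071 on the log2 scale per array. A probe was kept when at least 50% of its used spots were well above background on both arrays, which left 28074 probes and, by the brightest probe, 23262 genes. Of these, 15027 (64.6%) matched a RefSeq symbol or synonym. Other names are those of the array design. The number of arrays limits the precision. With 1 array per group there is no spread between cultures, and a p-value from the fit measures the spread between shR-554 and shR-749.

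A gene seen on 1 of both arrays was given a bound, the ratio of its scaled signal to the higher of its own and of the lowest scaled signal well above background on the other array. limma 3.58.1 in R 4.3.3 (lmFit and eBayes with trend, p-values adjusted by Benjamini-Hochberg) tested shR-467 against the mean of shR-554 and shR-749. The steps were tested on simulated data. The other steps ran in Python 3.11.15 (numpy 2.4.6, pandas 2.3.3, matplotlib 3.10.9).

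The groups compared, the 29 gene lists and the marker genes were chosen with earlier results of these data known. Genes were named by rule: UNC50, AREG and REG3A, the 6 genes the study names from the arrays, and, among genes with a RefSeq name, the 10 largest rises and falls with shR-467 among all genes, in the class of neither other hairpin (by the smaller distance to the other hairpins) and in the class of all 3. Members of a list are named where the list is described, and KRT72, ENTHD1, AKR1B15, MFAP5 and ELFN2 were singled out once their values were known. Some genes that the rule or the lists hold are not reported here by name, and counts over the lists include them. Other settings tried were other scalings, normexp, the authors' table, other filters, thresholds and tests, and each other hairpin left out. Other columns of the scanner output served as filters or were not used.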

Additional observations from a re-analysis of the deposited data

Results flagged for a closer look

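In 8 named genes shR-467 went past 1.5-fold one way from the mock array while shR-554 and shR-749 both went the other way by at least 1.5-fold. Over all 21492 genes read on the 4 arrays, 44 did so. Apart from AREG, the 8 genes were named by their distance from both other hairpins, a rule that favours opposite directions. The log2 difference with shR-467 was -0.704 for AREG, 1.96 for OTC, 1.99 for SCN2B, 1.08 for AGXT2, 1.46 for C21orf63, -1.11 for PDIA2, -0.968 for CDH11 and -0.783 for MEI1. The contrast of shR-467 with the mean of the other hairpins was largest for OTC, at 3.07 ± 0.33 (SE from limma), and smallest for AREG. In limma the adjusted p of this contrast was 0.503 for all of them but CDH11, where it was 0.614, so that none passed the test. The slide row of the arrays cannot be told apart from this contrast.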

How the results depend on the processing

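The numbers of genes moved with the fold threshold, the background correction and the treatment of dim probes. The 2782 genes past 1.5-fold with shR-467 became 1181 with normexp and quantile normalization, 1392 when the signal had to be at least 3 times the lowest one well above background, 6793 with no filter, 730 at 2-fold and 169 with 1.5 read on the log2 scale. The 1464 genes past 1.5-fold with neither other hairpin became 750 with normexp, 787 with the stricter signal filter and 403 at 2-fold. The 224 genes shared by all 3 became 125 with normexp and 59 at 2-fold, and sorting by 1 other hairpin gave 532 without shR-554 and 499 without shR-749. The 348 genes beyond both others by 2-fold became 116 with normexp, 139 with the stricter filter, 212 at 2-fold, 548 without shR-554 and 632 without shR-749. The 2271 genes between the shR-467 and shR-MOCK arrays became 1120 with normexp and 1218 with the stricter filter. Members past 1.5-fold, summed over the gene lists, numbered 90 and were 29 at 2-fold. Quantile normalization gave 1562 higher and 1286 lower genes, 54.8% higher, where 65.2% were higher with the 75th percentile. The limma test called 0 genes in each of its alternatives, with 1322 to 1650 genes at an unadjusted p under 0.05 over 21491 to 21497 genes and 1017 over 16563 with the stricter filter. The smallest adjusted p, 0.141, came from setting shR-467 against the other 3 arrays, mock included. The single genes and lists gave 3464 alternative values together with these counts, of which 277 moved and 2 reversed. Of those that moved, 237 were of single genes and 12 of lists. Both reversals were of single genes. LRRC27 was at 0.045 with the stricter filter, which left it another probe, and MUC1 at -0.396 with the mean over its probes, which read opposite directions. The haptoglobin difference stayed between 2.49 and 2.55, that of AREG between -0.75 and -0.66 and that of UNC50 between -2.11 and -1.97, while that of the dim OR6K2 ranged from 1.14 to 2.50. A block for slide or scan was not run, as all arrays share 1 slide and 1 scan. No paired analysis was possible because each group is 1 array and the groups share no replicate numbers. Signal over background limits the readings of genes in the dimmest of 4 equal groups, where the spread of differences was widest.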
